A study of Danio rerio with 4 samples.

Results

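Genes of the synaptic vesicle, of its fusion machinery and of the receptors for fast neurotransmitters were followed in zebrafish larvae that carry the hi272 allele of uhrf1. Nerve terminals release transmitter when SNARE proteins pull a vesicle onto the cell membrane, with synaptotagmins as the calcium sensors and complexins as the clamps of that step. Across the cleft, glutamate opens AMPA, NMDA and kainate receptors, and GABA and glycine open chloride channels, while neurexins and neuroligins hold the contact together. By 5 days after fertilisation a zebrafish larva swims and hunts, and its brain, spinal cord and retina hold many working synapses.

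The set was defined by the start of the gene symbol, ignoring case, and held 139 of the 31953 gene identifiers in the table. It takes symbols that begin with syt and a digit, snap25, stx1, sv2, syn1, syn2, vamp1, vamp2, stmn, elavl, cplx, nrxn, nlgn, gria, grik, gabra, gabrb, gabrg, glra, dlg4, gad, or grin with a 1 or a 2. The rule itself uses no measured value. The prefixes also take in 19 genes of other families, such as the DNA damage genes gadd45 and the syntaxins stx10 to stx18, and these are described apart from the other 120 genes. The 139 identifiers carried 110 symbols, because many zebrafish genes have a pair of copies and 56 identifiers shared their symbol with another. Symbols in capitals are human-style names that the symbol table gives to zebrafish genes, and identifiers separate the copies where needed.

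The mutant group comprised 2 libraries labelled uhrf1(hi272) and the control group 2 libraries labelled sibling, all from larvae collected 120 h after fertilisation. Uhrf1 brings the maintenance DNA methyltransferase to newly copied DNA, and hi272 is an insertion allele of its gene. Per the labels, each library came from 1000 ng of RNA from pooled whole larvae, and the siblings were chosen by their normal appearance, so their own genotype at uhrf1 was not stated. No genetic background is given, and the p-values measure only the spread between these pools, whose replicate numbers the labels do not tie to the 2 clutches.

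Reads assigned to genes numbered 571978 and 564941 in the mutant libraries, against 613370 and 812167 in the libraries labelled sibling. Reads of UHRF1 itself numbered 7 and 9 in the mutants, against 2 and 17 in the libraries labelled sibling; these overlap and were too few for the test. Markers of several tissues that a whole larva holds were scarce in the libraries labelled sibling, called siblings here for short. Their columns carry the heading ABNYU, whereas those of the mutants carry the number of the allele, and what ABNYU stands for is not stated. Whether they are whole larvae, as labelled, was not tested beyond these markers, and every fold of mutant over sibling rests on that label. Skeletal muscle markers (33 genes) took 7.28% and 6.57% of gene reads in the mutant libraries, against 0.0385% and 0.0168% in the libraries labelled sibling. Hepatocyte markers (48 genes) took 0.876% and 0.554% in the mutant libraries, against 28.7% and 22.0% in the libraries labelled sibling. Exocrine pancreas markers (23 genes) had 31 and 30 reads in the mutant libraries, against 463 and 162582 in the libraries labelled sibling. The part of tissue make-up in the results below cannot be told apart from genotype, since both differ between the same libraries, and in bulk RNA fewer cells of a type cannot be told apart from less RNA per cell.

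Reads of synaptic genes were plentiful in the mutant libraries and scarce in the libraries labelled sibling. The 139 genes together had 2921 and 2921 reads in the mutant libraries, against 407 and 460 in the libraries labelled sibling. These are 0.511% and 0.517% of gene reads in the mutant libraries, against 0.0664% and 0.0566% in the libraries labelled sibling. Without the other families the 120 remaining genes had 2747 and 2730 reads (0.480% and 0.483%) in the mutant libraries, against 213 and 159 reads (0.0347% and 0.0196%) in the libraries labelled sibling. At the mutant share the libraries labelled sibling would have held 6867 reads of these genes in place of 372. The mutant pair gave nearly equal shares, and the 2 groups were far apart.

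**Figure D1:**
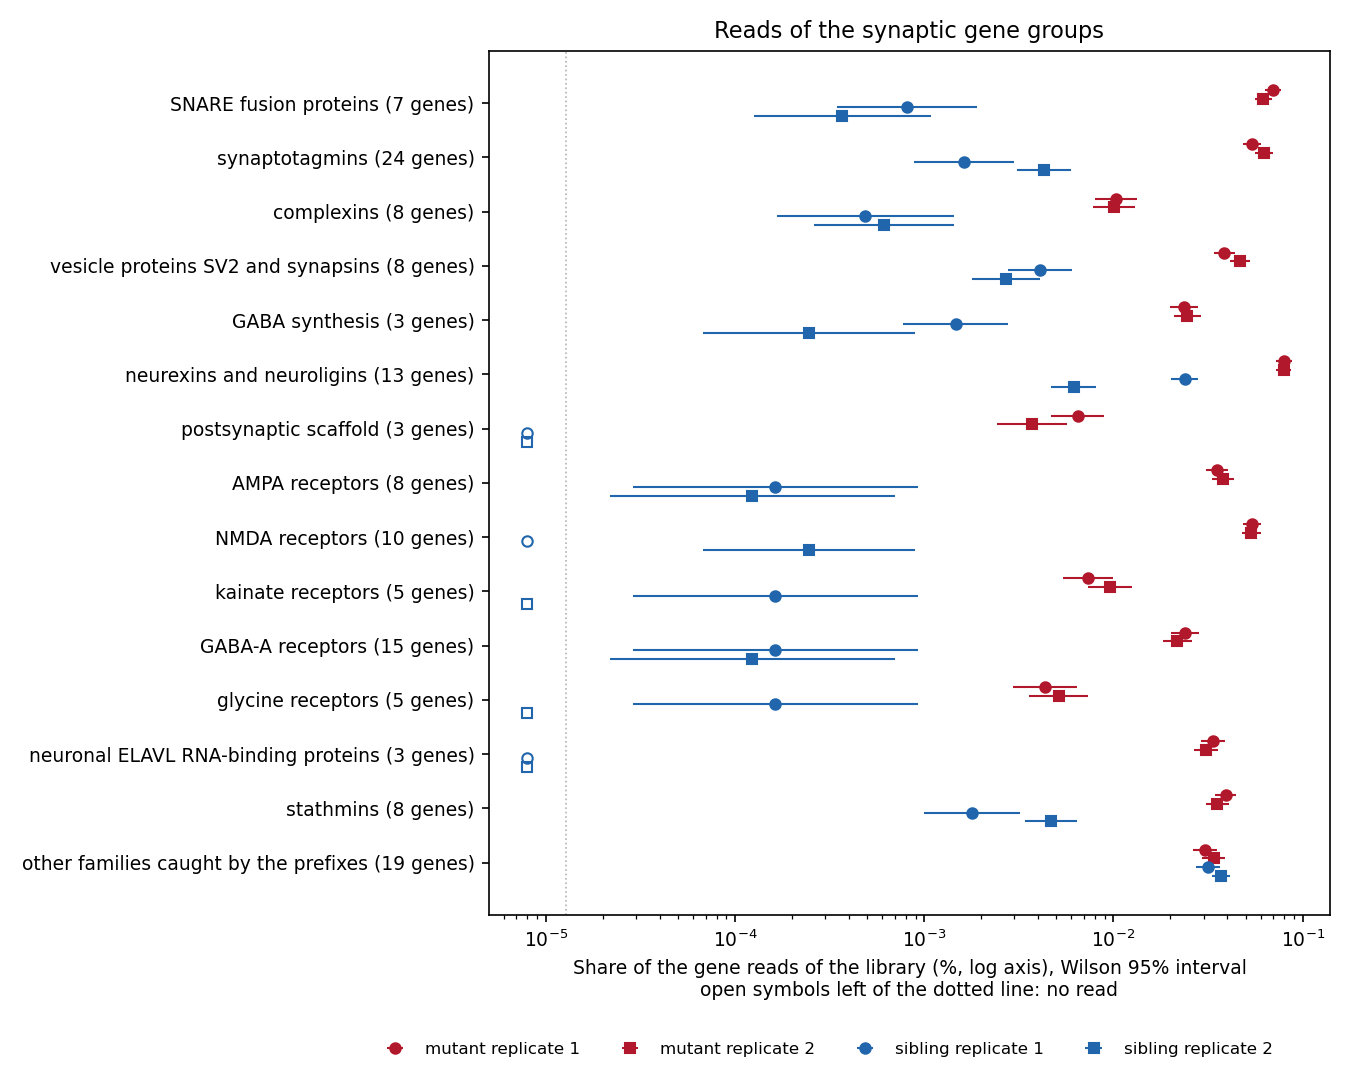
Share of gene reads taken by the genes of each role, in percent on a log axis, with 1 point per library and Wilson 95% intervals; open symbols left of the dotted line mark libraries with no read. In every synaptic role both mutant libraries lie to the right of both libraries labelled sibling. The other families caught by the prefixes, at 0.0304% and 0.0338% in the mutants, against 0.0316% and 0.0371% in the siblings, lie together as sums. Most of their sibling reads came from GADD45G and GADD45B.

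Gene by gene, 80 of the 137 members with a read had reads in both mutant libraries and none in either library labelled sibling (58.4%, against 19.3% of all genes with a read). After scaling, both mutant libraries lay above both libraries labelled sibling for 109 members (79.6%, against 38.6% of all genes), and below them for 12 (8.76%, against 22.6%). Enough reads for a test were present for 69 members. Of these, 61 were higher in the mutants by the quasi-likelihood test of edgeR at a Benjamini-Hochberg adjusted p under 0.05, whereas 35.2% of all 8133 tested genes were called higher. Another 5 were lower, whereas 25.9% of all tested genes were called lower, and 3 did not pass the threshold. The median log2 fold change of the tested members was 6.36, or 2.86 when genes with no sibling read were set at their lower bound, and that of all tested genes was 0.48.

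Because 65 of the 69 passed the count filter only through the mutant libraries, the filter favoured higher calls, and their count is a description. The counts for the synaptic roles and lists below carry the same limit. Of the 69, 41 had no read in either library labelled sibling (59.4%, against 9.54% of all tested genes), and 19 had only 1 to 3 reads there. For a gene with no sibling read, the fold is a lower bound taken against 3 reads over both sibling libraries, and these bounds ran from at least 2.63-fold to at least 44.8-fold. Without the filter, 36 of 137 members were called higher (26.3%, against 6.45% of all genes) and 3 lower, against 6.13%. Among the 70 members with too few reads for the test, 47 lay higher in both mutant libraries and 7 lower. Of all genes with a read, tested or not, 38.6% lay higher and 22.6% lower. A share over untested genes alone was not taken. None of the 70 had more than 23 reads in a mutant library.

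The calls leaned on having both mutant pools. For fits that leave out a library, bracketed percentages give the share of all tested genes with the same call. Tested members numbered 62 without mutant replicate 1 and 61 without mutant replicate 2. Without mutant replicate 1, 14 members were called higher (3.86% of all tested genes) and 3 lower (10.5%), and without mutant replicate 2, 24 were called higher (8.32%) and 4 lower (14.3%). Without sibling replicate 1, 44 of 85 tested members were called higher (16.5% of all tested genes) and 6 lower (19.4%), and without sibling replicate 2, the library with the pancreas reads, 57 of 84 were called higher (23.7%) and 4 lower (21.9%). In these fits the lone library is assumed to vary like the other group. Across all the fits tried, 14 of the 61 calls held, among them those of SNAP25 (ENSDARG00000020609), SV2A, GAD1 (ENSDARG00000027419), GAD2, nrxn2a, NRXN3, nrxn3b, both GRIN1 copies, ELAVL3, ELAVL4 and STMN1 (ENSDARG00000033655). They cover the fusion machinery, vesicle proteins, GABA synthesis, adhesion molecules, NMDA receptors and RNA-binding proteins of neurons. They are also among the members with the most mutant reads, with GAD1 (ENSDARG00000027419) lowest at 113. The share of calls that held was not taken over all genes, so this count has no background.

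**Figure D2:**
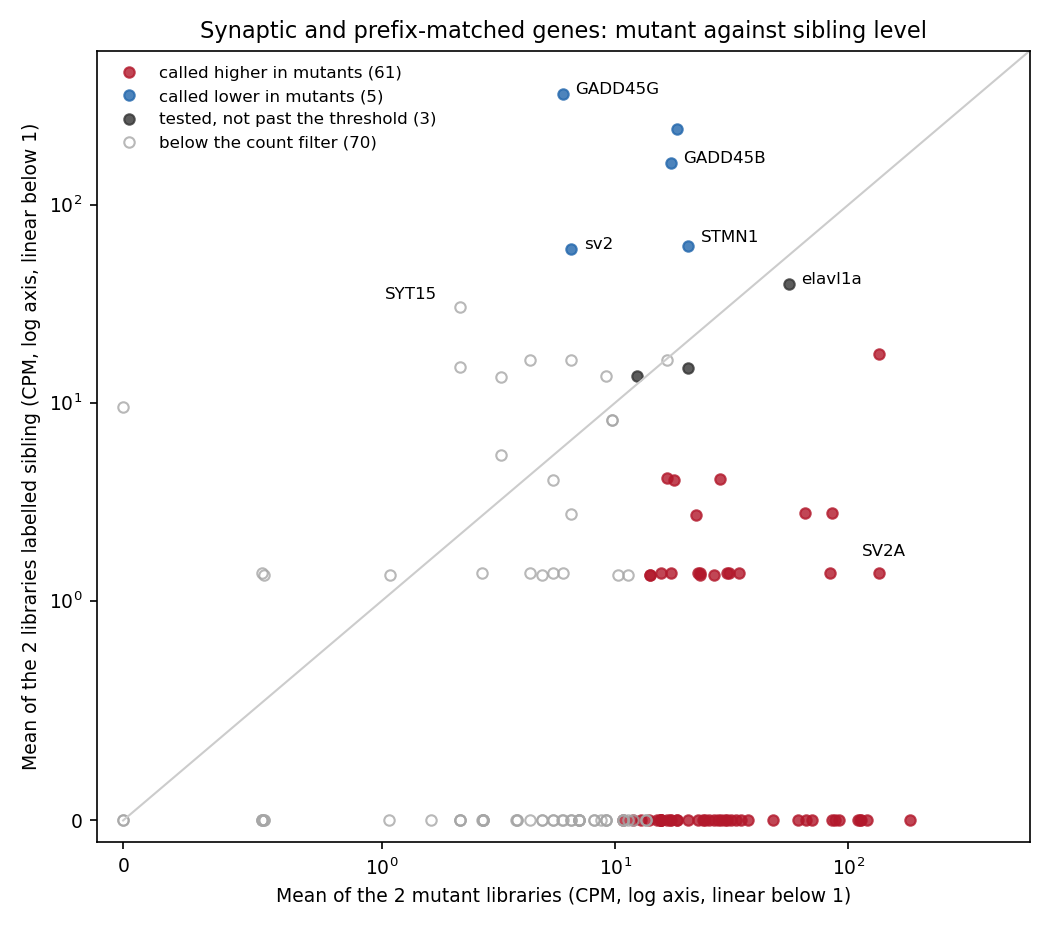
Mean CPM (reads relative to the scaled library size) of each member in the mutant libraries (x axis) and in the libraries labelled sibling (y axis), on log axes that are linear below 1, coloured by the outcome of the edgeR test. Most members lie along the bottom edge, where no sibling read was found, and the 5 members called lower, among them sv2, a STMN1 copy and a pair of gadd45 genes, lie above the line of equality.

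The SNARE proteins that drive vesicle fusion were read almost only in the mutants. This group of 7 genes had 399 and 350 reads in the mutant libraries, against 5 and 3 in the libraries labelled sibling. All 5 tested genes were higher, against 35.2% of all tested genes, but all 5 passed the count filter only through the mutants. SNAP25, a SNARE of the presynaptic membrane, is present as a pair of copies. The copy ENSDARG00000020609 had 112 and 110 reads in the mutants, against 0 and 0 in the siblings, at least 29.2-fold higher (adjusted p = 3.67e-06, edgeR quasi-likelihood test with Benjamini-Hochberg adjustment). The copy ENSDARG00000058117 had 36 and 20 reads in the mutants, against 0 and 0 in the siblings, at least 7.37-fold higher. The vesicle SNAREs followed the same pattern. vamp1a had 29 and 32 reads in the mutants, against 0 and 0 in the siblings, at least 8.03-fold higher, and its copy vamp1b had 8 and 5 against 0 and 0, too few to test. vamp2 (synaptobrevin) had 30 and 27 reads in the mutants, against 0 and 1 in the siblings. STX1A went the other way: it had 0 and 0 reads in the mutants, against 5 and 2 in the siblings, did not enter the filtered test, and had an adjusted p of 0.103 in the edgeR test without the filter. It was chosen after its values were seen.

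Synaptotagmins, which carry calcium-binding domains and tie release to calcium entry, summed to 308 and 353 reads in the mutant libraries, against 10 and 35 in the libraries labelled sibling. Of 24 genes, 7 were tested and all 7 were higher in the mutants, against 35.2% of all tested genes. Each of these calls, those of SYT1 and SYT11 included, was lost without mutant replicate 1. SYT1 (ENSDARG00000030614), the main fast calcium sensor, had 76 and 82 reads in the mutants, against 0 and 2 in the siblings. Its log2 fold change was 4.87 ± 0.65 (standard error, adjusted p = 3.23e-05, edgeR quasi-likelihood test). SYT11 (ENSDARG00000057913), a family member that does not bind calcium, had 53 and 68 reads in the mutants, against 0 and 2 in the siblings (4.48 ± 0.67 on the log2 scale). Both genes were read in each mutant library many times more often than in either sibling library. SYT15 stood apart, with 1 and 3 reads in the mutants, against 3 and 19 in the siblings, and was not tested. Its groups touched at 3 reads.

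Complexins bind the assembled SNARE bundle. The 8 genes summed to 59 and 57 reads in the mutant libraries, against 3 and 5 in the libraries labelled sibling. Both tested genes were higher, against 35.2% of all tested genes, but both passed the count filter only through the mutants. cplx2a had 23 and 20 reads in the mutants, against 0 and 1 in the siblings, a ratio of 17.0 with an exact 95% counting interval of 2.89 to 686. CPLX4 (ENSDARG00000059978), a complexin known from retinal ribbon synapses in mammals, had 12 and 19 reads in the mutants, against 0 and 3 in the siblings. Its log2 fold change of 1.98 ± 0.80 was just past the threshold (edgeR quasi-likelihood test, adjusted p = 0.0452). The call was lost with the DESeq2 Wald test (adjusted p = 0.204), with no filter (0.187), with the replicate block (0.0768) and without mutant replicate 1 (0.276), mutant replicate 2 (0.4535) or sibling replicate 1 (0.326), where the log2 fold change was 1.035. The related cplx4c had 13 and 7 reads in the mutants, against 0 and 0 in the siblings, and CPLX2 had 4 and 6 against 2 and 1. Both were too low to test.

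Proteins of the vesicle itself were split. SV2 proteins are transporter-like glycoproteins of the vesicle membrane, and synapsins tether vesicles in their reserve pool. The 8 genes summed to 221 and 263 reads in the mutant libraries, against 25 and 22 in the libraries labelled sibling. Of 6 tested genes, 5 were higher and 1 was lower (all tested genes: 35.2% higher and 25.9% lower). The 5 passed the count filter only through the mutants, and the lower gene only through the siblings. SV2A (ENSDARG00000059945) had 118 and 133 reads in the mutants, against 0 and 1 in the siblings, a log2 fold change of 6.44 ± 0.66 (adjusted p = 3.49e-06, edgeR quasi-likelihood test). SV2B had 25 and 24 reads in the mutants, against 0 and 0 in the siblings, at least 6.45-fold higher, and sv2ba had 20 and 33 against 0 and 0, at least 6.98-fold higher. The synapsins moved with them: syn1 had 18 and 26 reads in the mutants, against 0 and 0 in the siblings, and SYN2 had 19 and 22 against 2 and 0. The gene named only sv2 (ENSDARG00000091833) did the opposite. It had 8 and 4 reads in the mutants, against 23 and 21 in the siblings, which was 44 of the 47 sibling reads of the group. Its log2 fold change was -3.18 ± 0.45 (adjusted p = 5.95e-05, edgeR quasi-likelihood test), but -0.55 with an adjusted p of 0.348 when libraries were scaled on ribosomal protein genes.

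The enzymes that make GABA from glutamate were read mainly in the mutants, with 135 and 139 reads over 3 genes in the mutant libraries, against 9 and 2 in the libraries labelled sibling. GAD2 (ENSDARG00000015537) had 81 and 74 reads in the mutants, against 0 and 1 in the siblings, a log2 fold change of 5.75 ± 0.69 (adjusted p = 1.35e-05, edgeR quasi-likelihood test). GAD1 (ENSDARG00000027419) had 53 and 60 reads in the mutants, against 0 and 0 in the siblings, at least 14.9-fold higher. These calls held in every fit tried. The other identifier with the symbol GAD1 (ENSDARG00000093411) had 1 and 5 reads in the mutants, against 9 and 1 in the siblings, groups that overlap, and was not tested. It supplied 10 of the 11 sibling reads of the group.

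Neurexins, the presynaptic adhesion molecules, and their postsynaptic partners the neuroligins held the most reads of any role in the mutants, 456 and 448, against 146 and 50 in the libraries labelled sibling. Of 11 tested genes, 10 were higher in the mutants and 1 was lower (all tested genes: 35.2% higher and 25.9% lower). The 10 passed the count filter only through the mutants. NRXN3 had 85 and 77 reads in the mutants, against 0 and 0 in the siblings, at least 21.3-fold higher. Its copy nrxn3b had 66 and 64 reads in the mutants, against 0 and 0 in the siblings, at least 17.1-fold higher. nrxn2a had 56 and 66 reads in the mutants, against 0 and 0 in the siblings, at least 16.1-fold higher. With nrxn2b, at 19 and 19 reads in the mutants, against 0 and 0 in the siblings, these neurexins were without a read in the siblings. Among the 7 neuroligins, 5 were tested and higher, with 12 to 19 reads in each mutant library and at most 3 in a sibling library. All of these neuroligin calls were lost with no filter and without either mutant replicate.

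The copies of some genes differed in which was read more, a balance within a library that does not depend on how libraries are scaled. STMN1, a tubulin-binding stathmin, is present as a pair of copies. Its copy ENSDARG00000004169 took 18.2% (Wilson 95% interval 12.3 to 26.0) and 12.9% (8.10 to 19.9) of the reads of the pair in the mutant libraries, against 100% of 9 (70.1 to 100) and 100% of 36 reads (90.4 to 100) in the libraries labelled sibling. For syt5a and syt5b, syt5a took 23.5% and 21.6% in the mutants, against 100% of 4 and 100% of 8 reads in the siblings. These were chosen after their values were seen. In all, 45 genes were present as more than 1 copy, some of them in the other families, and 16 of the 45 had every copy tested. At least 1 copy was called higher for 30 of the 45, and every copy for 13. For 2, STMN1 among them, the copies were called in opposite directions. A share over the copies of all genes was not taken, so these counts only describe the set. Of all tested genes taken singly, 35.2% were called higher. Nearly all tested members passed the count filter only through the mutants, which favoured higher calls. How the submitters' counting assigned reads that match more than 1 copy is not given in the sources used here, so values of close copies are uncertain.

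**Figure D3:**
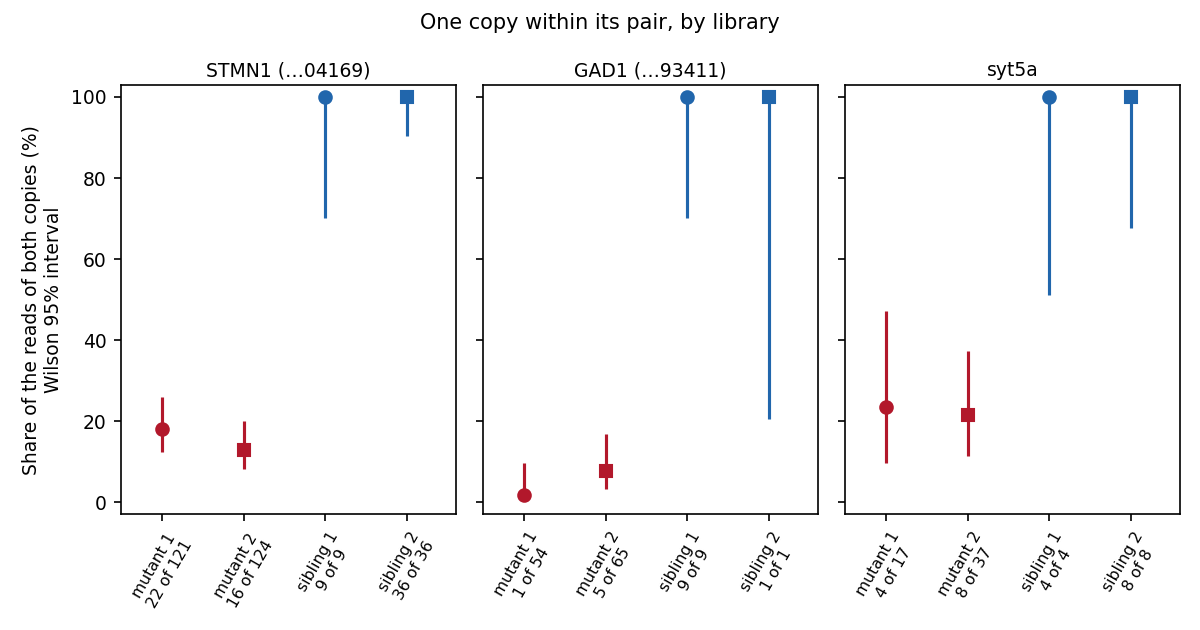
Share of reads that fell on the named copy, out of the reads of both copies, in each library, with Wilson 95% intervals and the read counts under each point. For STMN1 (ENSDARG00000004169) the mutant libraries lie at 18.2% and 12.9%, against 100% in both sibling libraries, which hold 36 reads of a pair or fewer in every panel.

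DLG4 (PSD-95), the scaffold under glutamate receptors, had no sibling read in any of its 3 identifiers, against 37 and 21 reads in the mutants. The tested copy (ENSDARG00000039385) had 19 and 13 reads in the mutants, against 0 and 0 in the siblings, at least 4.21-fold higher. Its call was lost with no filter and without mutant replicate 1, mutant replicate 2 or sibling replicate 1.

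Receptors for glutamate were read in the siblings at most a few times. AMPA receptor subunits, which carry fast excitation, summed to 202 and 215 reads over 8 genes in the mutant libraries, against 1 and 1 in the libraries labelled sibling. All 8 were tested and higher, against 35.2% of all tested genes. GRIA2 (ENSDARG00000052765), the subunit that limits calcium entry, had 45 and 43 reads in the mutants, against 0 and 0 in the siblings, at least 11.6-fold higher. Its copy ENSDARG00000070173 had 18 and 29 against 0 and 0, at least 6.19-fold higher. GRIA3 (ENSDARG00000037498) had 33 and 31 reads in the mutants, against 0 and 0 in the siblings, at least 8.43-fold higher. Its copy ENSDARG00000032737 had 28 and 28 against 0 and 1. Each of the subunits GRIA1 to GRIA4 was called higher in both of its copies. All 8 genes passed the count filter only through the mutants, which favoured higher calls. None of these 8 calls held in every fit that left out a library.

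NMDA receptors need glutamate and a co-agonist and admit calcium. Their 10 genes summed to 310 and 303 reads in the mutant libraries, against 0 and 2 in the libraries labelled sibling, where 769 would be found at the mutant share. GRIN1, the subunit that every NMDA receptor contains, had 100 and 104 reads in the mutants, against 0 and 0 in the siblings for ENSDARG00000025728, at least 26.9-fold higher (adjusted p = 4.50e-06, edgeR quasi-likelihood test). The copy ENSDARG00000027828 had 84 and 85 reads in the mutants, against 0 and 0 in the siblings. GRIN2A, a glutamate-binding subunit, had 28 and 41 reads in the mutants, against 0 and 0 in the siblings, at least 9.08-fold higher. Its copy grin2ab had 14 and 15 against 0 and 0. All 6 tested NMDA receptor genes were higher, against 35.2% of all tested genes, but all 6 passed the count filter only through the mutants. The 4 untested ones had mutant reads and no sibling read.

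Kainate receptors modulate release and excitation. Their 5 genes summed to 42 and 54 reads in the mutants, against 1 and 0 in the siblings. Both tested genes were higher, against 35.2% of all tested genes, but both passed the count filter only through the mutants. GRIK3 had 12 and 17 reads in the mutants, against 0 and 0 in the siblings, and GRIK4 had 10 and 10 against 0 and 0. The GRIK4 call was lost with the replicate block, the DESeq2 Wald test, no filter and in every fit that left out a library, and the GRIK3 call with no filter and without mutant replicate 1, mutant replicate 2 or sibling replicate 1. GRIK1 (ENSDARG00000069139) and GRIK5 had 7 to 14 reads in each mutant library and were not tested.

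The inhibitory receptors gave the same picture at lower counts. GABA-A receptor subunits summed to 137 and 123 reads over 15 genes in the mutant libraries, against 1 and 1 in the libraries labelled sibling. All 6 tested genes were higher, against 35.2% of all tested genes, but all 6 passed the count filter only through the mutants. gabrb4 had 26 and 19 reads in the mutants, against 0 and 0 in the siblings, at least 5.93-fold higher. The tested GABRB2 copy (ENSDARG00000079586) had 16 and 18 against 0 and 0, at least 4.48-fold higher. Every GABA-A gene had a read in both mutant libraries, and GABA binds between the alpha and beta subunits of the receptor. Glycine receptor alpha subunits, which serve inhibition in the spinal cord and hindbrain, had 25 and 29 reads over 5 genes in the mutants, against 1 and 0 in the siblings. GLRA1 had 13 and 13 reads in the mutants, against 1 and 0 in the siblings, a log2 fold change of 3.19 ± 0.84 (adjusted p = 0.00532, edgeR quasi-likelihood test). The GLRA1 call was lost with no filter (adjusted p = 0.0655, same test) and with the DESeq2 Wald test (adjusted p = 0.113). It was also lost without mutant replicate 1, mutant replicate 2 or sibling replicate 2. GLRA3 had 3 and 10 reads and glra4a 6 and 5 in the mutants, with none in the siblings, and GLRA2 had no read in any library.

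Neuronal RNA-binding and cytoskeletal genes complete the set. ELAVL4 (HuD) and ELAVL3 (HuC), which bind AU-rich RNA and mark newly formed neurons, had no sibling read. ELAVL4 had 105 and 104 reads in the mutants, against 0 and 0 in the siblings, at least 27.5-fold higher, and ELAVL3 had 87 and 70 against 0 and 0, at least 20.7-fold higher. ELAVL2 had 0 and 1 reads in the mutants, against 0 and 0 in the siblings. Stathmins, which bind tubulin and loosen microtubules, summed to 224 and 200 reads in the mutants, against 11 and 38 in the siblings. STMN1 (ENSDARG00000033655) had 99 and 108 reads in the mutants, against 0 and 0 in the siblings, at least 27.3-fold higher. STMN4 (ENSDARG00000030106) had 29 and 23 reads in the mutants, against 1 and 2 in the siblings (2.72 ± 0.65 on the log2 scale, adjusted p = 0.0028, edgeR quasi-likelihood test). This STMN4 call was lost without mutant replicate 1, mutant replicate 2 or sibling replicate 1. The other STMN1 identifier, ENSDARG00000004169, had 22 and 16 reads in the mutants, against 9 and 36 in the siblings, or 20.5 ± 4.73 CPM and 61.9 ± 53.1 CPM (mean ± SD, n = 2). It was called lower at -1.58 ± 0.56 (adjusted p = 0.0314, edgeR quasi-likelihood test), but its direction turned to 0.18 with total-count scaling and 1.14 with ribosomal protein scaling. The call was lost at -0.21 without sibling replicate 2.

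The other families caught by the prefixes summed to similar shares in all libraries. Their 19 genes had 174 and 191 reads in the mutant libraries, against 194 and 301 in the libraries labelled sibling. They made up 6.25% of the members' mutant reads but 57.1% of their sibling reads. These sums joined genes that went both ways. The GADD45G and GADD45B identifiers named below gave most of the sibling reads but few of the mutant reads. After scaling, both mutant libraries lay above both libraries labelled sibling for 6 genes (31.6%, against 38.6% of all genes with a read). They lay below for another 6 (31.6%, against 22.6%). Of 5 tested genes, none was higher, 2 were lower and 3 did not pass, but these 3 were called higher under total-count scaling and under ribosomal protein scaling. GADD45G (ENSDARG00000019417), a stress-induced gene, had 8 and 3 reads in the mutants, against 78 and 185 in the siblings, or 5.95 ± 3.86 CPM and 361 ± 212 CPM (mean ± SD, n = 2). Its log2 fold change was -5.88 ± 0.58 (adjusted p = 6.82e-06, edgeR quasi-likelihood test), and the call held in every fit tried. GADD45B (ENSDARG00000027744) had 17 and 15 reads in the mutants, against 64 and 55 in the siblings, a log2 fold change of -3.22 ± 0.36, or -0.59 with an adjusted p of 0.194 under ribosomal protein scaling. The widely expressed ELAVL1 genes, relatives of the neuronal ELAVL genes, were read in every library. elavl1a had 53 and 50 reads in the mutants, against 10 and 19 in the siblings (0.48 ± 0.39 on the log2 scale, adjusted p = 0.292, edgeR quasi-likelihood test). The identifier ELAVL1 had 17 and 21 reads in the mutants, against 8 and 3 in the siblings (adjusted p = 0.481), and STX12 (ENSDARG00000098813), a syntaxin of endosomes, had 10 and 13 against 7 and 3 (adjusted p = 0.844). With total-count scaling elavl1a was called higher at 2.21 (adjusted p = 0.000417), and without sibling replicate 2 at 1.07 (adjusted p = 0.04996).

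The scaling of libraries moved every fold. The median log2 fold change of all tested genes was 0.48 with the TMM scaling used, 2.17 with total-count scaling and 3.11 with ribosomal protein scaling. The tested members' median was 6.36, 7.07 and 7.69 under these, and 61, 64 and 64 members were called higher, against 35.2%, 68.7% and 79.1% of all tested genes. Lower calls numbered 5, 4 and 1, against 25.9%, 12.5% and 7.99%. With total-count scaling both mutant libraries lay above both libraries labelled sibling for 118 members, against 61.3% of all genes with a read. They lay below for 6 members, against 8.87%. The DESeq2 Wald test called 53 members higher, against 21.0% of all tested genes, and 4 lower, against 20.4%. These medians use the fitted folds of genes with no sibling read, which depend on the prior count. Of the lower calls, GADD45G alone was kept under ribosomal protein scaling.

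Other genes of the synapse were taken from 5 lists by name, with the members removed. Of 182 genes, 80 were tested, of which 66 were higher in the mutants, 3 lower and 11 not past the threshold (all tested genes: 35.2% higher and 25.9% lower), with a median log2 fold change of 4.095. As for the members, 75 of the 80 passed the filter only through the mutants. Without mutant replicate 1 the count called higher was 9 of 70 (3.86% of all tested genes), and without mutant replicate 2 it was 19 of 76 (8.32%).

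In the active zone list, 19 of 25 tested genes were higher and 1 was lower (all tested genes: 35.2% and 25.9%). PCLO and BSN are giant scaffold proteins of the release site. PCLO had 97 and 99 reads in the mutants, against 1 and 0 in the siblings, and BSN had 87 and 75 against 0 and 0, at least 21.3-fold higher. The lower gene was NAPA, the SNARE recycling factor that all cells use, with 11 and 12 reads in the mutants, against 32 and 19 in the siblings (-2.47 ± 0.41 on the log2 scale, adjusted p = 0.000195, edgeR quasi-likelihood test). It was chosen after its values were seen, and neither total-count nor ribosomal protein scaling kept the call.

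Among vesicle membrane proteins and transmitter transporters, 13 of 15 tested genes were higher and 2 lower (all tested genes: 35.2% and 25.9%). SLC6A9, a glycine transporter, had 204 and 245 reads in the mutants, against 2 and 1 in the siblings, a log2 fold change of 5.82 ± 0.51. SLC1A2, the main glutamate transporter of glia in mammals, had 148 and 145 reads in the mutants, against 0 and 0 in the siblings, at least 38.6-fold higher. SLC1A3 (ENSDARG00000043148), also a glutamate transporter of glia, had 108 and 113 reads in the mutants, against 0 and 1 in the siblings. The lower genes, chosen after their values were seen, were the other SLC1A3 identifier (ENSDARG00000104431), with 7 and 9 reads in the mutants, against 12 and 27 in the siblings, and SLC6A4, the serotonin transporter, with 4 and 18 against 14 and 10. In raw reads the SLC6A4 groups overlap. Total-count and ribosomal protein scaling ended both calls.

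Vesicle recycling gave 9 higher genes of 10 tested, against 35.2% of all tested genes. DNM1, the GTPase that pinches vesicles off, had 76 and 57 reads in the mutants, against 0 and 3 in the siblings. SYNJ1, a lipid phosphatase that uncoats them, had 44 and 44 reads in the mutants, against 8 and 3 in the siblings (1.65 ± 0.46 on the log2 scale, adjusted p = 0.00743, edgeR quasi-likelihood test). The SYNJ1 call was lost with no filter (adjusted p = 0.0613, same test) and with the DESeq2 Wald test (adjusted p = 0.0718). It was also lost without either mutant replicate. The gene not past the threshold was ITSN1, an endocytic scaffold found in many tissues, with 60 and 67 reads in the mutants, against 21 and 16 in the siblings. Of the other transmitter receptors, 12 of 13 tested were higher, against the same 35.2%. gabbr1b, a GABA-B receptor subunit, had 37 and 37 reads in the mutants, against 1 and 2 in the siblings. GABRD, a GABA-A subunit outside the synapse, had 36 and 33 against 1 and 0. Among postsynaptic scaffolds 13 of 17 were higher and none lower (all tested genes: 35.2% and 25.9%). The scaffolds with the most reads were among those not past the threshold. dlg1b had 49 and 66 reads in the mutants, against 22 and 17 in the siblings. DLG3 had 51 and 42 against 7 and 14, and dlg1a had 42 and 35 against 13 and 9. These scaffolds and ITSN1 were called higher under total-count and ribosomal protein scaling, as were 68.7% and 79.1% of all tested genes.

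Genes of other cells of the nervous system and of the eye, taken from lists of markers, also had higher shares in the mutants. Other neuronal genes (41) took 0.218% and 0.251% of gene reads in the mutant libraries, against 0.00783% and 0.0299% in the libraries labelled sibling. Of 29 tested genes 27 were higher, against 35.2% of all tested genes, but 28 of the 29 passed the filter only through the mutants. In that list 19 of 41 genes had reads in both mutant libraries and no sibling read, against 19.3% of all genes with a read. Among them were sncb, eno2, gap43 and nefma, of which gap43 and nefma were not tested. The genes rtn1a (101 and 87 reads in the mutants, against 2 and 138 in the siblings) and tubb2b (101 and 147 against 24 and 85) gave most sibling reads of that list. Glial genes (20) took 0.121% and 0.125% in the mutants, against 0.00668% and 0.00763% in the siblings. This list includes the SLC1A2 and SLC1A3 identifiers described above, so it is not separate from the transporters. After scaling, 15 of its genes lay higher in both mutant libraries and 2 lower, against 38.6% and 22.6% of all genes with a read. Photoreceptor genes (38) took 0.247% and 0.283% in the mutants, against 0.000489% and 0.000492% in the siblings, and lens genes (22) took 0.116% and 0.154%, against 0.000489% and 0.000739%. Endocrine cells of the pancreas also express vesicle fusion genes, and their markers (19) had 182 and 161 reads in the mutants, against 4 and 759 in the siblings. These sums joined genes that differed in direction. The hormone genes ins (3 and 1 reads in the mutants, against 0 and 102 in the siblings) and sst2 (0 and 0 against 0 and 216) were read mainly in sibling replicate 2. NEUROD1 (36 and 25 against 0 and 4) and PCSK1 (33 and 21 against 0 and 2) were read mainly in the mutants. After scaling, 9 of the 19 lay higher in both mutant libraries and 1 lower. The part of any of these cell types in the members' values was not tested.

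**Figure D4:**
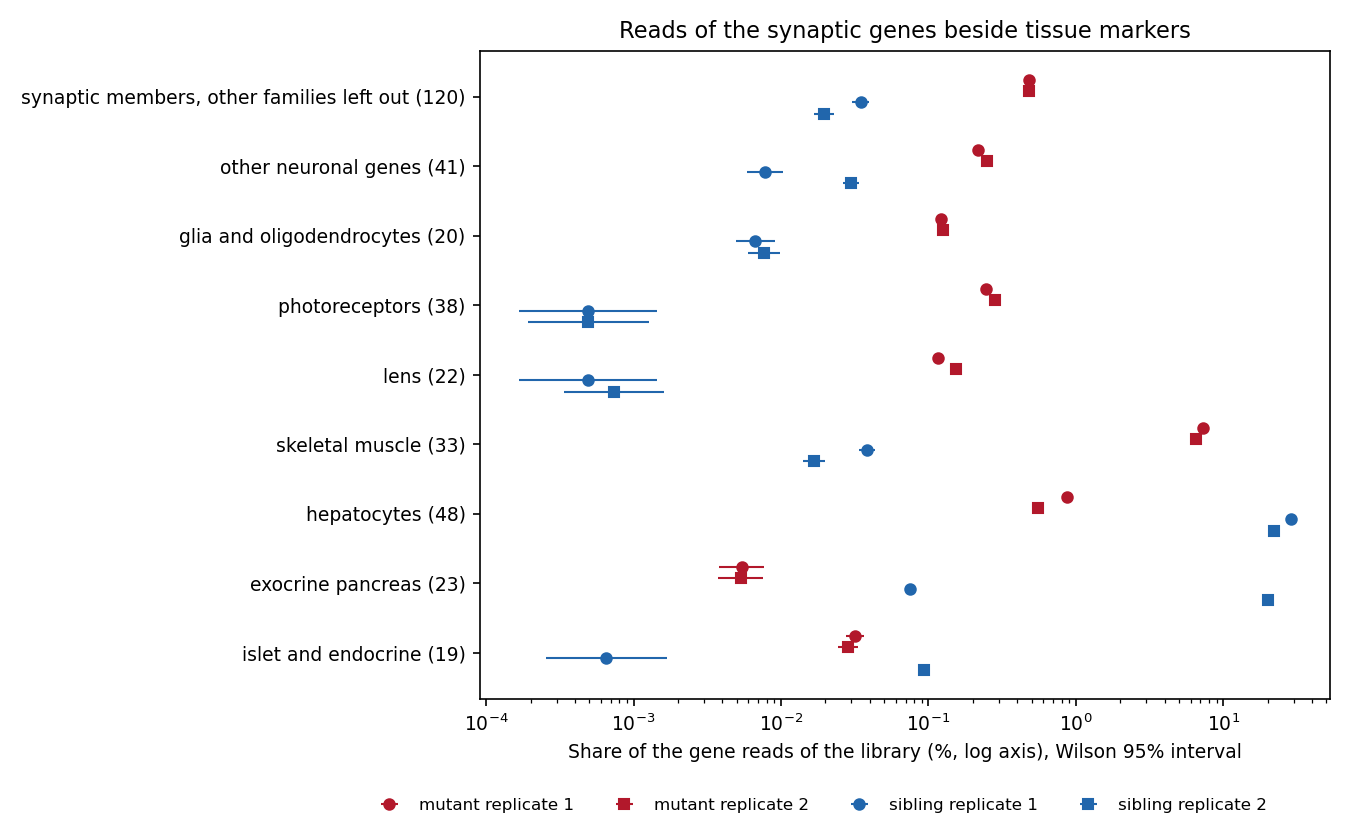
Share of gene reads of the members and of each marker list, in percent on a log axis, with 1 point per library and Wilson 95% intervals. The synaptic members, other neuronal, glial, photoreceptor, lens and muscle lists lie higher in both mutant libraries, and the hepatocyte list lies lower in them, at 0.876% and 0.554%, against 28.7% and 22.0% in the libraries labelled sibling.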

How the data were processed

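RNA depleted of ribosomal RNA was sequenced as 75 bp single reads from 2 mutant and 2 sibling pools, each of 10 larvae per the extraction protocol and 10 to 20 per the series' design text. The values are whole-number read counts per gene deposited by the authors with a column per library, per the file headers. Per the submitters' processing notes, TopHat2, HTSeq, DESeq2 and the build GRCz10 were used, without versions. Multi-mapping and strand settings are not stated, so overlapping genes and close copies are uncertain. Of 31953 identifiers 26121 were matched to a symbol. Positions, gene lengths and sequences were not used here, so levels are not compared between genes.

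All genes were tested with edgeR 4.0.16 (R 4.3.3; robust quasi-likelihood fit, filterByExpr by group, TMM, Benjamini-Hochberg threshold 0.05), which kept 8133 genes. The mutant libraries had TMM factors of 1.78 and 1.83, the sibling libraries of 0.63 and 0.485. With a floor of 3 reads, 0 reads leave room for 3.25 and 3.22 CPM in the mutant libraries and 8.11 and 8.28 CPM in the libraries labelled sibling. Intervals (Wilson for shares, exact binomial for ratios, 95%) and floors cover counting error only. Alternatives were DESeq2 1.42.0 (size factors, Wald test), total-count scaling, scaling on 75 ribosomal protein genes, no filter, a replicate block and leaving out each library.

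Chi-square between replicates was taken over genes with enough reads in the pair. Per degree of freedom it was 1.31 over 12572 genes in the mutants and 35.5 over 6647 genes in the siblings. Per gene it was 1.07 over 104 members in the mutants and 8.91 over 16 members in the siblings.

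The members and gene lists were chosen with earlier results of these data known. List genes were matched by symbol ignoring case, or by a capital symbol equal to the listed name without its copy letter, a rule added after the table was seen. Named genes were the 3 members per role with the highest mean CPM with their copies, members called lower, the 5 members highest in the siblings and the 3 highest genes of each other synaptic list; some of these are not reported here. Other named genes were chosen after their values were seen: STX1A, SYN2, syn1, vamp2, syt5a, syt5b, nrxn2a, nrxn2b, GRIK4, GRIA1, GRIA4, STX12, NAPA, SLC6A4 and the second SLC1A3. So were the neuronal markers sncb, eno2, gap43, nefma, rtn1a and tubb2b, and the endocrine markers ins, sst2, NEUROD1 and PCSK1. The table of repeat reads was not analysed here.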

Additional observations from a re-analysis of the deposited data

How the results depend on the processing

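The count of members called higher was 61, with 36 when no filter was applied and 14 to 57 when a library was left out. The count called lower was 5, with 1 under ribosomal protein scaling, 3 with no filter, 3 without the other families and 3 to 6 when a library was left out. Over all tested genes, higher calls numbered 2861, with 5585 under total-count scaling, 6433 under ribosomal protein scaling, 1540 with no filter, 1706 with the DESeq2 Wald test and 340 to 2405 when a library was left out. Lower calls over all tested genes numbered 2104, with 1015 under total-count scaling, 650 under ribosomal protein scaling and 924 to 2227 when a library was left out. Other synaptic genes gave 66 higher calls, with 39 with no filter and 9 to 62 when a library was left out, and 3 lower calls, with 0 under total-count scaling, 0 under ribosomal protein scaling, 1 with no filter and 0 to 3 when a library was left out. Roles with a member called higher numbered 14 of 15, with 15 under total-count and ribosomal protein scaling, 11 with no filter and 7 to 14 when a library was left out, and roles with a member called lower numbered 4, with 1 under ribosomal protein scaling, 2 with no filter and 2 to 5 when a library was left out. The median log2 fold change of tested members was 6.36, with 7.07 under total-count scaling, 7.69 under ribosomal protein scaling, 4.81 with no filter, 5.00 with the DESeq2 Wald test and 6.34 to 6.60 when a library was left out. Directions reversed for STMN1 (ENSDARG00000004169; 0.18 under total-count and 1.14 under ribosomal protein scaling) and for ELAVL1 (-0.045 without sibling replicate 2, up to 1.33 without sibling replicate 1). The causes of these changes were not tested. Deviations of the same-numbered libraries had a correlation of 0.04 over 8133 genes. It cannot tell whether replicate numbers pair the libraries: the mutant pair differed little beyond counting error (chi-square per degree of freedom 1.31). With the replicate block 58 members were higher and 5 lower, against 2518 higher and 2051 lower among all 8133 tested genes. The calls of CPLX4, GRIK4 and nlgn4xa were lost in that fit. Depth limits the set: 70 of 139 members had too few reads for the test.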
